A study of Homo sapiens with 2 samples.

Results

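The subtelomeric KDM1B peaks were those whose midpoint lay within 2 Mb of the end of a chromosome, on chromosomes 1 to 22. The short-arm ends of chromosomes 13, 14, 15, 21 and 22, which carry ribosomal RNA gene arrays and satellite sequence, were left out, so that 39 chromosome ends remained. They held 5753 of the 77404 autosomal peaks, and of the 78536 peaks of the whole list. KDM1B (LSD2) is a flavin-dependent demethylase of histone H3 lysine 4. Its distribution was measured by ChIP-seq, the sequencing of DNA recovered with an antibody from crosslinked, sheared chromatin, in the triple-negative breast cancer line MDA-MB-231. Both groups were made from the same cells, which stably expressed KDM1B with a 3xFLAG tag from the retroviral vector pOZ, so every peak concerns the introduced, tagged protein. The KDM1B_ChIP group was 1 library precipitated with the anti-FLAG M2 antibody, and the input group was 1 library of the same kind of chromatin without precipitation. Cells without the tag were not analysed here, and the sources used here do not say whether the line was a clone or a pool.

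Subtelomeres are the transition between the telomere repeat and the unique sequence of a chromosome arm. Their outermost stretches are patchworks of segments duplicated between many chromosome ends, with families such as the WASH genes, olfactory receptors and DUX4, and farther inward come some of the most gene-dense and GC-rich parts of the genome. Both sorts of sequence lie within a short distance of each other, which makes the ends a varied set of regions for a protein reported both near gene starts and within active genes.

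The sequences of 6 promoters are shown first as examples, from a ribosomal protein gene with a strong peak at its start to developmental and mucin genes with none. Each run is the 250 bases before the annotated start, on the gene's own strand, from RefSeq (GRCh38.p14), with every CG dinucleotide in capitals. RPS15, a protein of the small ribosomal subunit, lay on 19p (chr19:1438146-1438395, plus strand). Its promoter held 30 CG dinucleotides and was overlapped by a peak with a log2 ratio of ChIP over input of 4.34. ZNF10 and ZNF891, a pair of zinc finger genes on 12q that point away from each other (chr12:133130377-133130626, plus strand, and chr12:133130275-133130524, minus strand), shared a single peak of 3.78 over overlapping promoters with 40 and 36 CG dinucleotides. The promoter of FANCA, a subunit of the Fanconi anaemia complex of DNA repair, lay on 16q (chr16:89816648-89816897, minus strand), held 31 and was under a peak of 2.43 beside the widest peak of the set.
RPS15: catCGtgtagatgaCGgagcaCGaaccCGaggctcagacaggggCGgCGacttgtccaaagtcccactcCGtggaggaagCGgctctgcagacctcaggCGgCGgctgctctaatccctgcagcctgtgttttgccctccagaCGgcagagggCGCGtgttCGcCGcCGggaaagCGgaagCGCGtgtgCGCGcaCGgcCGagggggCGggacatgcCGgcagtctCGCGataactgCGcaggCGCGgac
ZNF10: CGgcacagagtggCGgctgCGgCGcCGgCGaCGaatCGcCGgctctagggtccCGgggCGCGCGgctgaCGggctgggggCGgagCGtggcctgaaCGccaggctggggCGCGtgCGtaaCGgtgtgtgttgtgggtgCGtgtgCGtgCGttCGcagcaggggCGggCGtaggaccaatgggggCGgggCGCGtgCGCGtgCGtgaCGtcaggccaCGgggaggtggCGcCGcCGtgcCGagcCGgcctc
ZNF891: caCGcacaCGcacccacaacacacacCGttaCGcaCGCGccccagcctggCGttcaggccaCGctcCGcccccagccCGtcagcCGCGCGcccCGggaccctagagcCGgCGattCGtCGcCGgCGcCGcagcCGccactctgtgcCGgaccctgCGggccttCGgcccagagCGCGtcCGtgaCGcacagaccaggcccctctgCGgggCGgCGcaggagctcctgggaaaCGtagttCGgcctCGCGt
FANCA: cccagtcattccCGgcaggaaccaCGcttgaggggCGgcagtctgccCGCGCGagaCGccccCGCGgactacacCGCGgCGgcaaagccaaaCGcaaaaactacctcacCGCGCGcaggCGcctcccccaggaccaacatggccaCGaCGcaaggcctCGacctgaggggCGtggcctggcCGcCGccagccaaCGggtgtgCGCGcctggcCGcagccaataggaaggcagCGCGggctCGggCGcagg

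No peak overlapped the promoter of MUC2, a secreted gel-forming mucin of the gut on 11p (chr11:1074624-1074873, plus strand), which held 6 CG dinucleotides. None overlapped that of DMRT1, a transcription factor of testis development on 9p (chr9:841447-841696, plus strand), which held 20. These 6 promoters are chosen examples, in which those under a peak held 30 to 40 CG dinucleotides and those without a peak 6 and 20.
MUC2: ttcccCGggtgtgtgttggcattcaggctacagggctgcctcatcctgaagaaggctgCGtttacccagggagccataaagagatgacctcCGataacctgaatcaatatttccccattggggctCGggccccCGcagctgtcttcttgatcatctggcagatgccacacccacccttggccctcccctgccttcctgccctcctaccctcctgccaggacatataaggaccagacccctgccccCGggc
DMRT1: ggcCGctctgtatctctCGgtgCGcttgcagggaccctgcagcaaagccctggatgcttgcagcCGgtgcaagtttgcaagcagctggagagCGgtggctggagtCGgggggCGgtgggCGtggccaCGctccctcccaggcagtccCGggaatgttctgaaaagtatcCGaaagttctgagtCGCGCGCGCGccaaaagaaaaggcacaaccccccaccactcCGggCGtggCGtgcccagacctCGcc

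MicroRNA hairpins, the folded precursors of microRNAs, are another set of short elements at the ends. Of 92 hairpins in the RefSeq table that lay in the ends, 36 were overlapped by a peak by at least 1 bp. That is 39.1% (95% Clopper-Pearson interval 29.1 to 49.9), against 15.4% (13.5 to 17.4) of 1369 in the rest of the same chromosomes and 16.9% of both together. The intervals treat hairpins as separate, although some shared a peak, such as MIR647 and MIR1914, so they are too narrow. For scale, 10.2% of all sequence at the ends and 2.75% of the rest lay under peaks. The 6 mature sequences from overlapped hairpins that follow have the seed (bases 2 to 8) in capitals. They are shown as examples of hairpins under the strongest, the wide and the outermost peaks. MIR6763 on 12q (mature sequence at chr12:132582002-132582020, plus strand) had the strongest peak of all hairpins at the ends, with a log2 ratio of 5.49. MIR943 on 4p (chr4:1986403-1986423, minus strand) lay in a wide peak over NSD2 with a log2 ratio of 3.74, and MIR647 (chr20:63942691-63942711, minus strand) and MIR1914 (chr20:63941511-63941532, minus strand) on 20q lay in the same wide peak over DNAJC5 and UCKL1 at 3.34. A neighbour on 20q, MIR941-1 (chr20:63919495-63919517, plus strand), had 2.80. MIR6859-1 (chr1:17409-17431, minus strand) lay in the outermost peak of 1p, at 2.24. No 2 of these 6 shared a seed.
hsa-miR-943: cUGACUGUugccguccuccag
hsa-miR-647: gUGGCUGCacucacuuccuuc
hsa-miR-1914-5p: cCCUGUGCccggcccacuucug
hsa-miR-941: cACCCGGCugugugcacaugugc
hsa-miR-6859-5p: gAGAGGAAcaugggcucaggaca
hsa-miR-6763-5p: cUGGGGAGuggcuggggag

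For contrast, 3 well-studied microRNAs whose hairpins had no peak are given. MIR200B and MIR429 on 1p (chr1:1167160-1167181 and chr1:1169055-1169076, plus strand) encode members of the miR-200 family, which holds cells in an epithelial state, and MIR210 on 11p (chr11:568112-568133, minus strand) encodes a microRNA induced by low oxygen. The mature products of MIR200B and MIR429 share a seed.
hsa-miR-200b-3p: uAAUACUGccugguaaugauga
hsa-miR-429: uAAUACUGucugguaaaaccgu
hsa-miR-210-3p: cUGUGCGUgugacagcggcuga

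The deposited list gave for each peak its position and the authors' log2 ratio of ChIP over input, without read counts, so the depth of the libraries and the counting error of single ratios are unknown. With 1 library in each group no difference below has a replicate check or a p-value. Intervals cover the counting of peaks or genes only. The ratio was used only to describe and rank peaks within the list.

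Peaks were dense at the ends. The 39 ends covered 2.72% of the autosomal length compared and held 7.43% of its peaks (95% Clopper-Pearson interval 7.25 to 7.62). This was 73.8 peaks per Mb (95% Poisson interval 71.9 to 75.7) over 78 Mb, against 25.7 (25.5 to 25.9) over the remaining 2787 Mb of the same chromosomes, a ratio of 2.87 (2.79 to 2.95). Several peak-dense chromosomes are short and give more of their length to ends, so the pooled ratio mixes chromosomes. Set against the density of the rest of its own chromosome, the number of end peaks was 2.52 times (2.46 to 2.59) what that density would give. The ends of 21 of 22 chromosomes were denser than the rest of that chromosome, and chromosome 14 was the exception.

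The ends were also rich in genes. Protein-coding genes stood at 16.1 per Mb at the ends and 6.36 per Mb in the rest, a ratio of 2.54. There were 4.58 peaks for each coding gene at the ends and 4.04 in the rest. Per coding gene the ends and the rest were thus close, while per length they were not. Inside coding and lncRNA genes the ends had 99.7 peaks per Mb of gene-covered sequence (96.9 to 102) and the rest 39.8 (39.5 to 40.1), a ratio of 2.51. That ratio was 2.22 when each chromosome was its own reference. Outside genes the densities were 29.1 (27.2 to 31.2) and 9.03 (8.87 to 9.20) per Mb, a ratio of 3.23. Coding genes at the ends were short, with a median span of 13.7 kb against 26.0 kb.

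Autosomes were then divided into bins of 1 Mb and compared at like numbers of coding genes. Bins with 1 to 4 coding genes had a median of 17 peaks at the ends and 4 elsewhere. With 10 to 19 genes the medians were 69 and 51, and with 20 to 39 genes 109 and 87.5. With 40 or more genes, the 7 end bins had a median of 151 and the 18 other bins 92.5. The 3 end bins without a coding gene held no peak at all, and the median of the 468 such bins elsewhere was also 0. The medians of the end bins were thus higher in each of the classes with genes, and the ranges between the quartiles overlapped in all of these but the last.

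**Figure D1:**
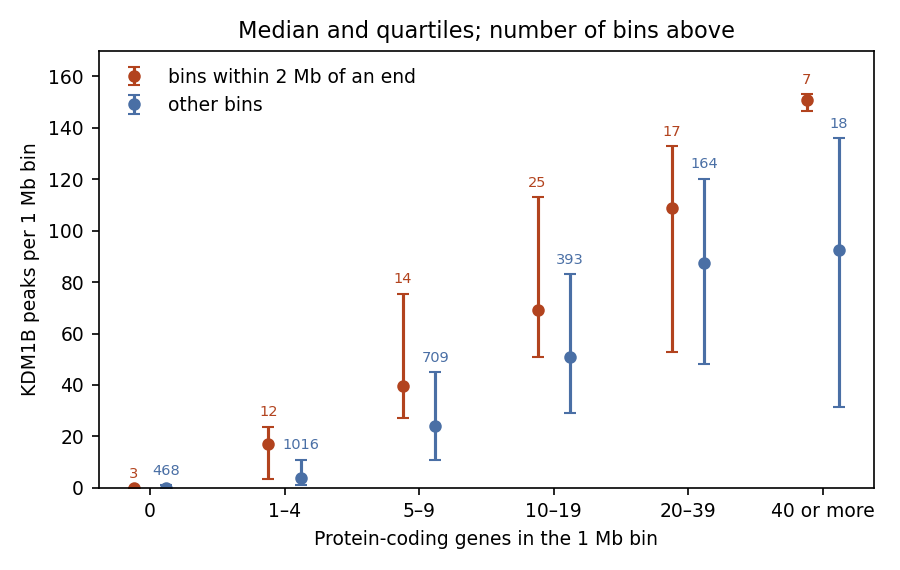
Peaks per 1 Mb bin (vertical axis) by the number of protein-coding genes in the bin (horizontal axis). Points are medians, bars run from the lower to the upper quartile, and the number of bins stands above each bar. Bins within 2 Mb of an end (red) had higher medians than other bins (blue) wherever a coding gene was present, for example 69 against 51 with 10 to 19 genes.

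Chromosome arms differed far more from each other than the ends differed from the rest on average. The number of peaks in an end ran from 1 on 3p through a median of 143 to 368 on 17q. The 5 fullest ends, 17q, 19p (330 peaks), 16p (293), 16q (285) and 17p (285), held 27.1% of the set, and the 10 fullest held 48.2%. At 17q this was 184 peaks per Mb (166 to 204) against 62.6 in the rest of chromosome 17. At 19p it was 165 per Mb (148 to 184) against 76.0. The 5 emptiest ends were 6p and 8p with 37 peaks each, 4q with 4, 9p with 3 and 3p with 1, and together they held 1.43%. Of the 39 ends, 32 were denser than the rest of their own chromosome and 7 were not: 1q, 2p, 3p, 4q, 9p, 11q and 14q. For 3p, 4q and 9p the density of the rest lay above the Poisson interval of the end, while 1q, 2p, 11q and 14q were within counting error of it.

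**Figure D2:**
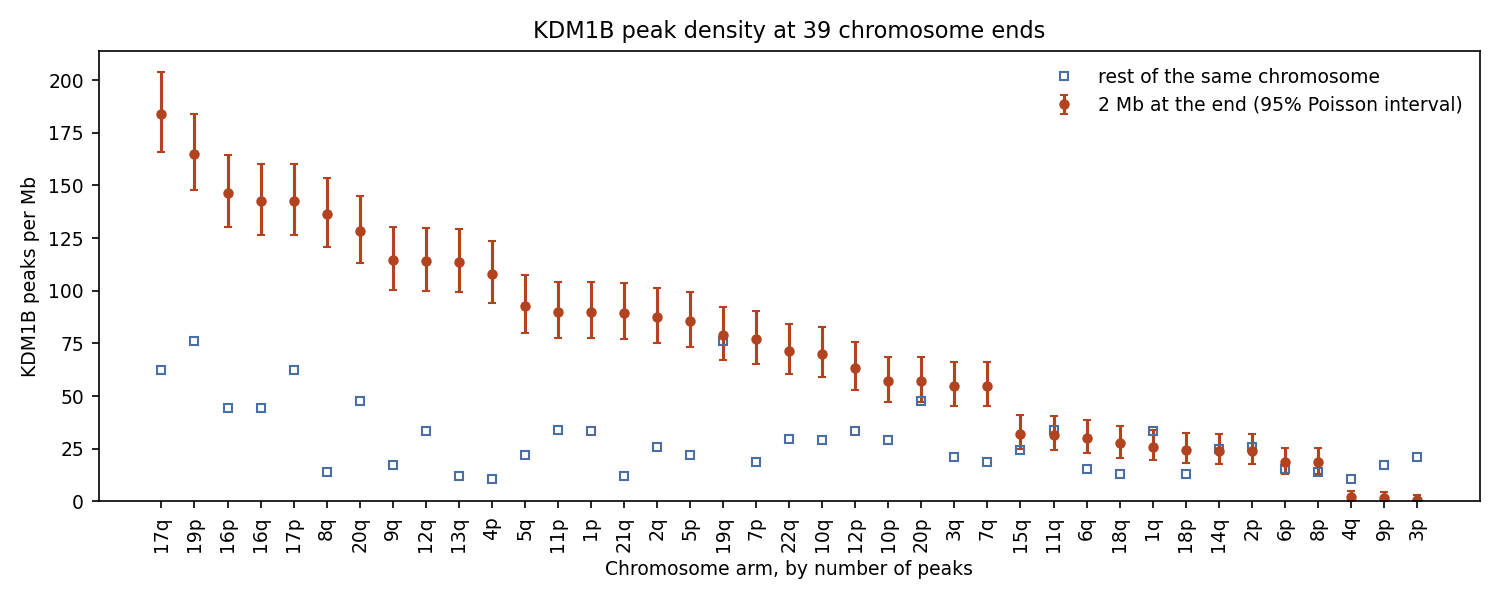
KDM1B peaks per Mb at each of 39 chromosome ends (red points, bars are 95% Poisson intervals), ordered by number of peaks, with the rest of the same chromosome as blue squares. The ends run from 184 peaks per Mb on 17q to 0.5 on 3p, and 32 of the 39 lie above the square of their own chromosome.

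The ends of a single chromosome could lie at opposite extremes. Chromosome 4 had 216 peaks at its 4p end and 4 at 4q, around a rest of 10.8 per Mb. Chromosome 8 had 273 at 8q and 37 at 8p, and chromosome 9 had 229 at 9q and 3 at 9p. Chromosome 3 had 110 at 3q and 1 at 3p. In 6 of the 17 chromosomes with both ends counted, the fuller end had at least 3 times the peaks of the other. Across these 17 chromosomes the peaks at the p end and at the q end had a Spearman correlation of 0.04. Relative to their own chromosome the densest ends were 4p (9.97 times the rest), 8q (9.92 times), 13q (9.29 times) and 21q (7.55 times), all on chromosomes whose remainder held under 14 peaks per Mb. The remainder of chromosomes 13 and 21 includes their short arms beyond the outer 2 Mb. Genes covered 41.5% and 41.2% of it, against 51.6% for chromosome 4 and 55.3% for chromosome 8, so these ratios are not fully alike.

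The order of the arms followed their gene content. Over the 39 ends the number of peaks and the number of coding genes had a Spearman correlation of 0.81. All points come from the same 2 libraries and the same window length, and the value is given as a description. Per length of gene, 31 of the 39 ends exceeded the rest of their chromosome. Some arms departed from the general relation. 7q had 110 peaks with 7 coding genes, 15.7 per gene, and its peaks were concentrated in a few long genes such as ESYT2, a lipid transfer protein of membrane contact sites, and DNAJB6, a co-chaperone, each with 25 peaks inside. In contrast 1q had 56 coding genes and 52 peaks, 0.93 per gene, and 43 of those 56 genes were olfactory receptors. On 9p, 11 coding genes had 3 peaks in all.

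In the 5 fullest ends the genes with the most peaks inside held 19 to 54. TBCD, a tubulin folding cofactor on 17q, had 53 peaks inside and VPS53, a subunit of a Golgi tethering complex on 17p, had 54. ANKRD11, a chromatin regulator on 16q, had 44, CRAMP1 on 16p had 29 and SBNO2, a transcriptional coregulator on 19p, had 19. Per 10 kb of gene these were 2.73 peaks for TBCD, 2.62 for VPS53, 1.97 for ANKRD11, 4.42 for CRAMP1 and 2.85 for SBNO2. Other ends had comparably filled genes. EHMT1, a histone H3 lysine 9 methyltransferase on 9q, had 51 peaks, RASA3, a Ras GTPase-activating protein on 13q, had 47, and PCNT, the scaffold protein pericentrin of the centrosome on 21q, had 45.

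Values follow for 4 of the 5 emptiest ends. CNTN6, a neural cell adhesion protein on 3p, spans 311 kb and had no peak inside, and its neighbour CHL1, also a neural adhesion protein and 213 kb long, had none within 5 kb. FRG1 on 4q had none. WASHC1, of the duplicated WASH family on 9p, had 1. EXOC2, an exocyst subunit on 6p, had 11 peaks in 208 kb.

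Within the 2 Mb the peaks were not spread evenly. Lengths here count every coordinate of the assembly, including any stretch without sequence, where no peak can be called. What part such stretches had near the ends was not tested. In the outermost 0.1 Mb the density was 25.6 per Mb (20.9 to 31.2), close to that of the rest of the chromosomes, and from 0.1 to 0.25 Mb it was 38.1. It reached 86.9 per Mb between 0.25 and 0.5 Mb and 90 between 0.5 and 1 Mb, then was 71.3 and 73.7 in the next 2 steps of 0.5 Mb. Beyond the window the density was 61.7 from 2 to 2.5 Mb, 43.9 from 2.5 to 3 Mb, 46.3 from 3 to 5 Mb, 35.5 from 5 to 10 Mb and 22.3 beyond 20 Mb. The boundary at 2 Mb was not a step. The 230 peaks just inside it, from 1.9 to 2 Mb, stood at 59.0 per Mb with a median log2 ratio of 3.21 and a median width of 928 bp. The 241 just outside, from 2 to 2.1 Mb, stood at 61.8 per Mb with 3.02 and 868 bp.

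Per coordinate length, genes thinned toward the very end as well. Coding genes went from 6.92 per Mb in the outermost 0.1 Mb to a maximum of 18.97 between 0.5 and 1 Mb. Genes covered 25.8% of the outermost 0.1 Mb and 69.0% of the stretch between 0.5 and 1 Mb. Per gene-covered Mb the density inside genes was still lower at the outermost 0.1 Mb, at 59.6, than between 0.5 and 1 Mb, at 115. Of the 100 peaks in the outermost 0.1 Mb, 31% were intergenic, defined as lying outside coding and lncRNA genes and more than 1 kb from a gene end, against 6.89% between 0.5 and 1 Mb. None of those 100 was 5 kb or wider.

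**Figure D3:**
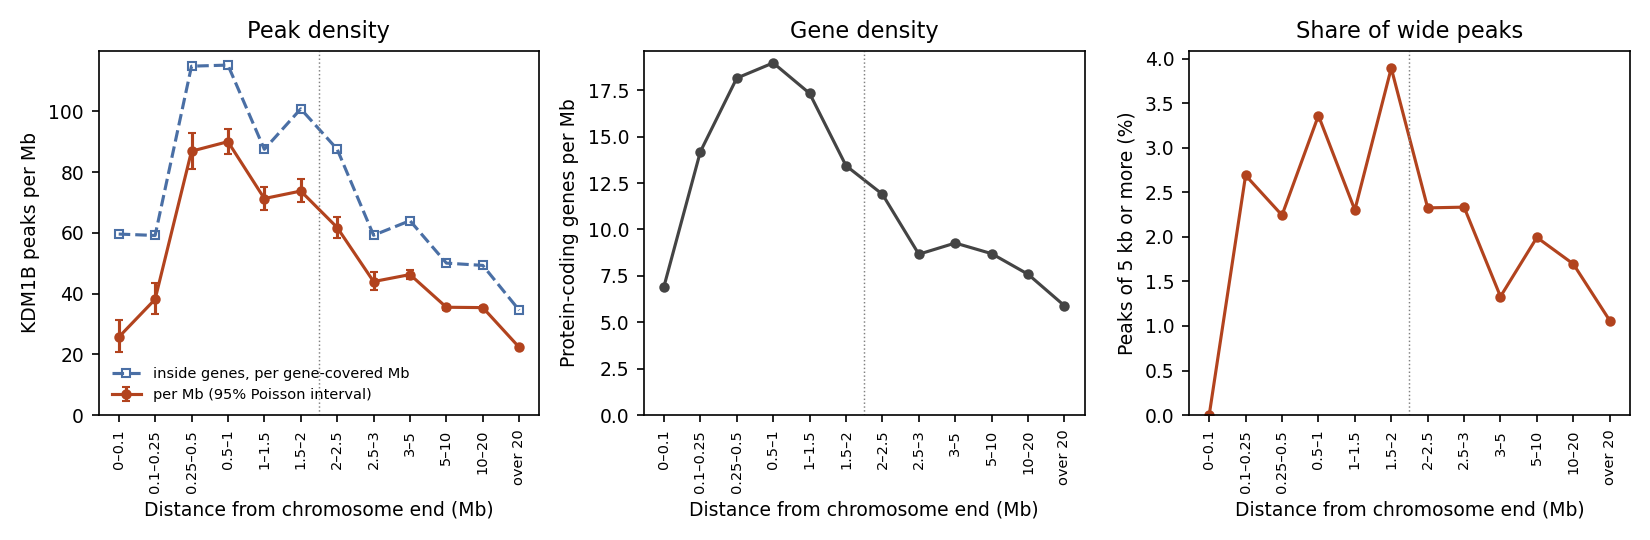
The 3 measures plotted are given by distance from the chromosome end (horizontal axis, unequal steps in Mb, out to the middle of each chromosome), with a dotted line at 2 Mb. Left, peaks per Mb (red, 95% Poisson intervals) and peaks inside genes per gene-covered Mb (blue); centre, protein-coding genes per Mb; right, the share of peaks that were 5 kb or wider. Peak density is 25.6 per Mb in the outermost step, 90 between 0.5 and 1 Mb and 22.3 beyond 20 Mb, and the steps from 1.5 to 2 Mb and from 3 to 5 Mb are not lower than the step before them, with overlapping intervals.

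The 4 peaks nearest to a chromosome end were weak. On 12q the outermost peak lay 9730 bp from the end (chr12:133264617-133265579) with a log2 ratio of 0.98, the lowest of all 5753. On 22q it lay 9987 bp away (chr22:50807516-50808481) with 1.27, on 5p 10051 bp (chr5:10051-12167) with 1.42, and on 10p 10061 bp (chr10:10061-10791) with 1.56. These 4 were among the 10 weakest peaks of the set, and only 11 of the 5753 had a ratio below 1.6. The peak closest to the end of 4p, 11922 bp away (chr4:11922-12422), was stronger at 3.604. All 5 were intergenic. The outermost peaks of the next arms by distance had 4.28 on 15q, 13459 bp from the end, and 3.57 on 16p, 16114 bp away. Over the 100 peaks of the outermost 0.1 Mb the median was 2.93, against 2.95 in the rest of the chromosomes, and 19% were above 4, against 11.8%. The telomere repeat itself is largely missing from the assembly, and the sources used here do not say how reads that match several chromosome ends were placed.

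In all, 9 ends had a peak within 20 kb of the chromosome end, 21 within 100 kb and 37 within 500 kb. These distances are assembly coordinates and include any stretch without sequence. On 3p the only peak lay 909 kb from the end. On 14q the first peak came at 1.55 Mb, in TEDC1, and outside it lies the immunoglobulin heavy chain locus, whose segments were not counted as coding or lncRNA genes.

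Peaks at the ends had somewhat higher ratios than peaks elsewhere. The median log2 ratio was 3.13 (95% order-statistic interval 3.10 to 3.15) against 2.95 (2.94 to 2.95) in the rest, a difference of 0.18. A ratio above 4 was reached by 981 peaks, 17.1% (16.1 to 18.05), against 11.8% (11.6 to 12.04) in the rest and 12.2% of all autosomal peaks. By position in genes the picture differed. In gene bodies the medians were 3.21 and 2.99, within 1 kb of gene ends 2.88 and 2.72, and in intergenic sequence, where the ends were not higher, 3.03 and 3.08. In 28 of the 36 ends with at least 20 peaks the median exceeded that of the rest of the chromosome.

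The arm with the highest ratios was 1p. Its 180 peaks had a median of 4.26, against 2.90 in the rest of chromosome 1, and 60% of them were above 4. The 37 peaks of 8p came next with 4.21. At the other extreme 20q had a median of 2.61, close to the 2.57 of the rest of chromosome 20, and 12p had 2.66. Peaks with a ratio that is a whole multiple of the step common to the list, 2.64 on the linear scale, moved with these medians. Such a value is the form a ratio takes when its denominator is 1 or divides the numerator. They made up 28.9% of the peaks on 1p, against 10.0% in the rest of chromosome 1, and 37.8% on 8p. Over the 36 ends the median ratio and this share had a Spearman correlation of 0.77, again over the same 2 libraries. What part small input counts had in the ranking of arms was not tested, as the counts are unknown. For the whole set the share was 12.4%, against 12.1% in the rest, and without such peaks the difference between the medians was 0.20.

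**Figure D4:**
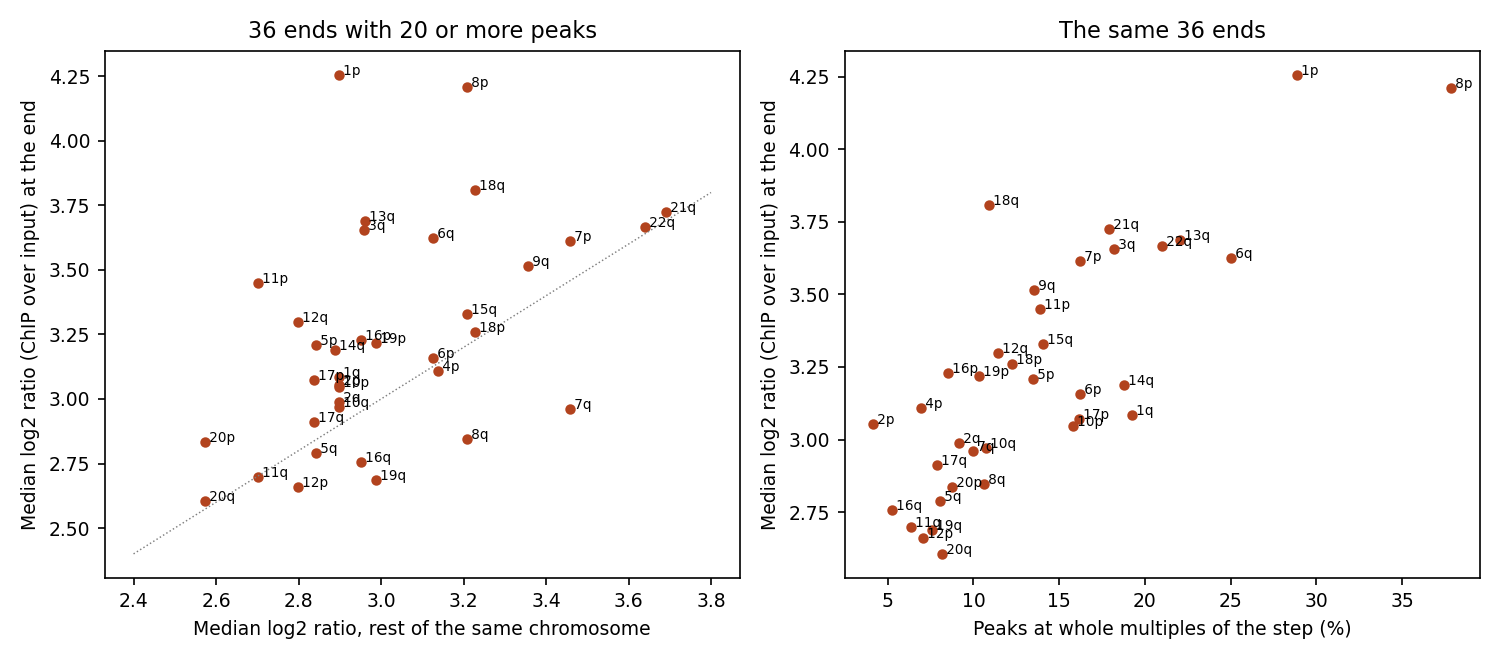
Median log2 ratio of ChIP over input at each of the 36 ends with at least 20 peaks (vertical axes). Left, against the median of the rest of the same chromosome, with a dotted line of equality; right, against the share of peaks whose ratio is a whole multiple of the step. Points are ends: 28 of the 36 lie above the line of equality, and 1p (4.26) and 8p (4.21) stand highest on both panels.

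Of the 10 strongest peaks 4 were on 1p, and 9 lay in a coding gene or within 5 kb of it. ATAD3B, a mitochondrial ATPase on 1p, had 7.13 (chr1:1493472-1495033) and SSU72, a phosphatase of RNA polymerase II, 7.07 (chr1:1547292-1548604). GNB1, a G protein beta subunit on 1p, followed with 6.53 (chr1:1849379-1850479). A peak 3217 bp from MAD1L1, a spindle checkpoint gene on 7p, and a peak in TUBGCP6, of the gamma-tubulin complex on 22q, both had 6.45. LRRK1, a protein kinase on 15q, and a peak 4335 bp from CDK11A, a cyclin-dependent kinase on 1p, had 6.36. An intergenic peak on 12q (chr12:132103334-132104317), over 5 kb from any coding gene, had 6.31. RASA3 on 13q and CTDP1, a phosphatase of RNA polymerase II on 18q, had 6.26. All 10 were at whole multiples of the step, from 29 to 53 times it, so their order rests on ratios of the kind described for 1p.

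Wide peaks were frequent at the ends. The median width was 893 bp (876 to 906) against 799 bp (796 to 803). Peaks of 5 kb or more numbered 172, or 2.99% (2.56 to 3.46), against 1.31% (1.22 to 1.39) in the rest and 1.43% of all autosomal peaks. At 10 kb or more the shares were 0.939% (54 peaks) and 0.299% (214 peaks). At 20 kb or more there were 15 peaks at the ends and 25 in the rest, so that 37.5% of the widest autosomal peaks lay on 2.72% of the length. Against the rest of each chromosome, peaks of 5 kb or more were 4.97 times as many as their density there would give, where all peaks were 2.52 times as many. These figures are not matched for gene content. In 1 Mb bins of the rest the share this wide rose from 0.620% with 1 to 4 coding genes to 2.662% with 40 or more. End bins had higher shares in the classes from 1 to 39 genes, for example 2.99% against 1.43% with 10 to 19. With 40 or more genes the order was reversed, at 2.403% in end bins against 2.662%. Peaks covered 10.2% of the sequence of the ends and 2.75% of the rest.

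**Figure D5:**
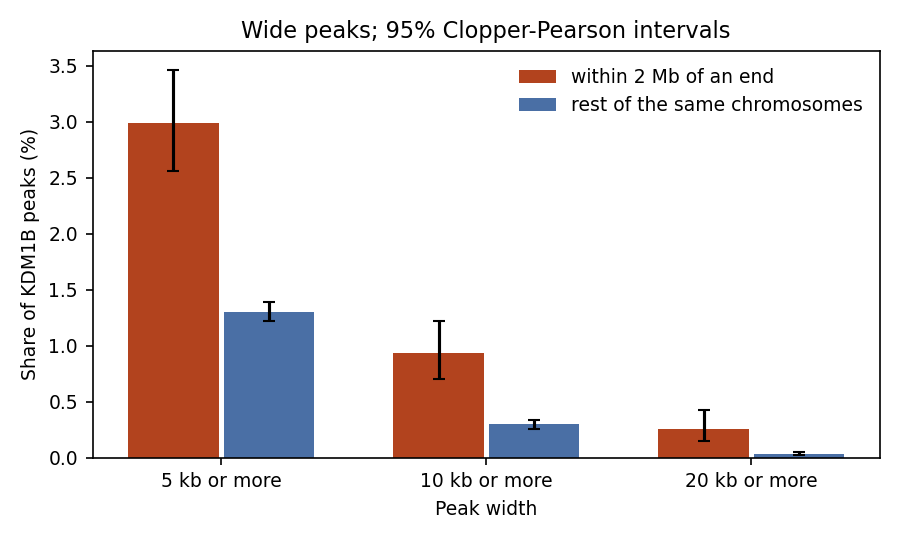
Share of peaks (vertical axis, percent) that were at least 5, 10 or 20 kb wide, at the ends (red) and in the rest of the same chromosomes (blue). Bars start at 0 and error bars are 95% Clopper-Pearson intervals. The ends have 2.99% against 1.31% at 5 kb and 0.261% against 0.0349% at 20 kb.

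Each of the 172 wide peaks overlapped a coding gene, and 25 overlapped 2 or more. Their log2 ratios were moderate, between 2.45 and 4.65, and only 1 was at a whole multiple of the step. The strongest and the widest peaks were thus different peaks. The wide peaks came from 28 of the 39 ends, with 16 on 12q, 15 on 16q, 14 on 20q, 13 on 17q and 11 each on 4p and 19p. The 3 widest were neighbours on 16q. A peak of 90.2 kb (chr16:89725242-89815392, log2 ratio 3.75) ran over FANCA and part of ZNF276. One of 46.9 kb (chr16:89511051-89557926, 3.802) lay over SPG7, a protease of the mitochondrial inner membrane, and one of 32.1 kb (chr16:89875431-89907522, 3.61) over TCF25.

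The next 7 came from 5 other arms. BRD9, a subunit of a SWI/SNF chromatin remodelling complex on 5p, lay under 28.3 kb. PRPF6, a splicing factor on 20q, lay under 27.4 kb, and CTBP1, a transcriptional corepressor on 4p, under 26.4 kb. HDLBP, the RNA-binding protein vigilin on 2q, lay under 25.6 kb and CSNK1D, casein kinase 1 delta on 17q, under 24.7 kb. NSD2, a histone H3 lysine 36 methyltransferase on 4p, shared 24.1 kb with its neighbour NELFA, a subunit of a complex that pauses RNA polymerase II. DNAJC5, a chaperone of synaptic vesicles on 20q, shared 23.6 kb with UCKL1. The log2 ratios of these 7 lay between 3.34 and 3.88.

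Cover of a large part of a gene, by 1 or more peaks, was also more frequent. Peaks covered at least 50% of the span of 220 of 1257 coding genes, 17.5% (15.4 to 19.7), against 6.90% (6.53 to 7.28) of 17716 in the rest and 7.6% of all. These shares were not split by gene length, and the median span was 13.7 kb at the ends and 26.0 kb in the rest. Genes over 70 kb long among them were FANCA (99.4% covered), RPA1 on 17p, a subunit of the single-stranded DNA binding complex RPA (79.4%), NCAPD3 on 11q, a condensin subunit (77.1%), and PCNT (71.3%). Others were EP400 on 12q, a chromatin remodeller (61.2%), and NSD2 (59.7%).

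At gene ends, taken as 1 kb on either side of both ends of the span because the table used has no strand, 666 of the 1257 coding genes had a peak midpoint. That is 53.0% (50.2 to 55.8), against 42.6% (41.9 to 43.3) in the rest and 43.3% of all, a difference of 10.4 points (7.51 to 13.2). Joining peaks within 1 kb of each other, which moves midpoints, brought the difference to 2.90 points (0.10 to 5.71). In the gene or within 5 kb the shares were 78.2% (75.8 to 80.5) and 68.5% (67.8 to 69.2), with 69.2% of all. The difference was present at most gene lengths. The shares with a gene-end peak were 46.2% and 36.1% for genes up to 10 kb, 58.4% and 46.7% from 10 to 50 kb, 57.1% and 45.8% from 50 to 200 kb, and 37.5% and 32.8% above that, where the ends had only 24 genes. Per 10 kb of gene, genes from 50 to 200 kb had 1.23 peaks at the ends and 0.620 in the rest. Promoters in the RefSeq sequence table, which has 65.6% of the coding genes at the ends and 69.6% of the others, were overlapped in 37.9% (34.6 to 41.3) of 821 cases at the ends, against 32.3% (31.5 to 33.1) in the rest and 32.7% of both.

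Gene groups at the ends fell on either side of these backgrounds, and the groups were chosen with earlier results of these data known. Genes of basic metabolism and the common cell machinery had a gene-end peak at 16 of 18, beside 53.0% of all coding genes at the ends. The 5 genes of this list in the rest all had one too. For those at the ends the median of the strongest ratio in the gene or within 5 kb was 3.97, beside 3.93 for all coding genes at the ends with such a peak. MRPL28 of the mitochondrial ribosome, SDHA of the respiratory chain and POLR2E of RNA polymerase II had the highest of those at the ends, at 4.79, 4.65 and 4.54. NDUFS7, of respiratory complex I, had 4.51. MRPL23 alone had no peak within 5 kb, and ATP5F1D had one within 5 kb but not at its ends. All 5 telomere and helicase genes at the ends had a peak in the gene or within 5 kb, and 4 had one at a gene end. Among all coding genes at the ends these shares were 78.2% and 53.0%. Of the 8 listed genes in the rest, 6 had a peak within 5 kb and 6 had one at a gene end. The strongest at the ends were 4.31 at POLE, a DNA polymerase catalytic subunit, and 3.83 at TERT, the catalytic subunit of telomerase. RTEL1, a helicase that acts at telomeres, had 3.45 without a gene-end peak, and RECQL4 had 3.11.

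C2H2 zinc finger genes are the largest family of transcription factors. At the ends 51 of 85 had a gene-end peak, or 60%, against 36.7% of the 461 in the rest. All coding genes at the ends stood at 53.0%, or 55.3% without olfactory receptors. It lay on few arms. On 19q it was 26 of 48, where 48.6% of all coding genes of that end had such a peak. On 8q it was 8 of 10, beside 76.3% of all coding genes there, and on 12q 4 of 7, beside 60%. On 4p it was none of 5, beside 51.2%. On 1q it was 5 of 7, beside 16.1%, and 43 of the 56 coding genes of that end were olfactory receptors. The strongest ratios within 5 kb were 5.72 at ZSCAN18, 5.49 at ZNF835 and ZNF268 and 5.40 at ZNF772, and 15 of the 85 had no peak within 5 kb. Of these 15, 11 were on 19q, among them ZSCAN4 and ZNF154, 2 on 1q (ZNF695 and ZNF670) and 2 on 4p (ZNF595 and ZNF732).

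Olfactory receptor genes, which are expressed in the nose and lie in clusters, were the reverse. Of 54 at the ends 1 had a gene-end peak and 2 had any within 5 kb, OR2B11 on 1q and OR2V1 on 5q. Neither had a peak inside. The gene-end peak was that of OR2B11, whose values a neighbouring gene outside the family shares. In the rest 3 of 334 had a gene-end peak. Without this family 55.3% of the coding genes at the ends and 43.4% in the rest had a gene-end peak. A list of genes from subtelomeric families was likewise bare. Its OR4F members were already counted among the olfactory receptors. It also holds the beta-defensin genes of 20p and VIPR2, and whether each listed gene has copies at other ends was not checked. None of its 25 members in the ends had a gene-end peak, and 4 had one within 5 kb. These were VIPR2 on 7q at 3.52, ZNF718 on 4p at 3.07, WASHC1 on 9p at 2.84 and FRG2 on 4q at 1.23. The beta-defensin genes DEFB125 to DEFB129 and DEFB132 on 20p, DUX4 on 4q and the TUBB8 genes on 10p and 18p had none. The handling of reads with several matches, on which peaks over duplicated sequence depend, is unknown here.

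Clusters of tissue-restricted genes were mixed. The 3 DMRT genes on 9p had no peak within 5 kb. Of the 4 secreted mucins on 11p, MUC6 had a peak of 5.24 and MUC5AC one of 2.49 within 5 kb, and MUC2 and MUC5B had none. Neither MUC6 nor MUC5AC had a peak inside or at a gene end. The 5 alpha-globin genes on 16p had no gene-end peak, and all but HBZ lay within 5 kb of peaks of 3.23 or 3.01, which neighbouring genes share. In the IFITM cluster on 11p, which encodes interferon-induced membrane proteins that restrict virus entry, IFITM2 had a gene-end peak of 4.65 and IFITM3 one of 2.37. IFITM1 had 2.002 within 5 kb, and IFITM5, a gene of bone, had none. IFITM10, which lies apart from the cluster (chr11:1732406-1750595), had 4.21. Among TNF receptor genes, TNFRSF4 on 1p had a peak of 5.76 within 5 kb and TNFRSF18 one of 3.36, neither inside the gene. Neighbouring genes had the same strongest values. TNFRSF6B on 20q had 3.45 with a gene-end peak of 2.90.

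Of 26 genes at the ends that are lost in subtelomeric deletion syndromes and ring chromosomes, 12 had a gene-end peak, or 46.2%, and 20 had one within 5 kb, or 76.9%. Among all coding genes at the ends these shares were 53.0% and 78.2%. The strongest were 6.53 at GNB1, 6.26 at CTDP1, 5.86 at EHMT1, the gene of Kleefstra syndrome, and 5.65 at both CRK and DIP2C. PDCD1 on 2q, CHRNA4 on 20q, CHL1 and CNTN6 on 3p and DOCK8 and KANK1 on 9p had none. Of these 6, 4 lay on the emptiest arms, and PDCD1 and CHRNA4 on arms with 175 and 257 peaks. Of 11 cancer genes, 6 had a gene-end peak, with strongest ratios within 5 kb of 5.07 at TRAF2, a TNF receptor adaptor, 4.79 at NOTCH1, and 4.21 at both GPR35 and STK11. HRAS on 11p and FLT4 on 5q had no peak within 5 kb.

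The hexamer TTAGGG, the unit of the human telomere repeat, was looked for on both strands of the 250 bases before the start of each coding gene in the sequence table. It was present in 6.82% of 821 promoters at the ends and in 8.02% of all 13150 promoters. At the ends it was in 7.40% of the promoters with a peak and 6.47% of those without. A match is a description of the sequence only.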

How the data were processed

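Peaks came from 1 anti-FLAG ChIP library and 1 input library. The submitters' processing notes name Trim Galore 0.4.5, Bowtie2 2.2.9 and the build hg38. The sources used here do not give the peak caller, its settings or the treatment of reads with several matches. For each peak the authors' deposited list holds a position and a log2 value, read as ChIP over input. It does not say if positions start at 0 or 1, and they are printed as deposited. The linear ratios in the deposited list share a step of 2.64, and a whole multiple of it was called at a tolerance of 1e-06 on the ratio divided by the step.

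Each peak was placed by its midpoint. The rest is the same chromosomes without the outer 2 Mb at either side. Genes were the 18973 protein-coding and 17525 lncRNA genes of a RefSeq table (GRCh38.p14, no strand). That table also lists genes of unplaced and alternate scaffolds under a chromosome with scaffold coordinates, which would place 112 further coding genes in the ends, 41 of them on 19p. These rows, 153 coding and 270 lncRNA genes, were left out. Promoter and microRNA sequences came from RefSeq tables, which are not complete. Since under 80% of coding genes matched a promoter entry, a comparison of GC content between ends and rest is void and nothing is drawn from it. The shares of promoters under a peak and with TTAGGG, and the CG counts at the ends, rest on the same incomplete entries and describe those promoters only.

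Shares carry exact Clopper-Pearson intervals, densities exact Poisson intervals, medians order-statistic intervals and differences of shares Wald intervals, all at 95%, computed with Python 3.11.15, pandas 2.3.3 and scipy 1.17.1. With 1 library per group no test was made. Counts were checked on simulated peaks. Named genes were those at the 10 strongest and 10 widest peaks, the gene with most peaks in the 5 densest and 5 sparsest ends, the 5 outermost peaks, and members of 12 lists, by strongest ratio or absence of a peak. A gene that this rule names is not reported here. Other genes with many peaks or high cover, those of 7q, and the printed sequences within these groups were chosen after their values were seen. The members and lists were chosen with earlier results of these data known. Alternatives were other window sizes, the stronger part of the list, any overlap, joined peaks, and removal of whole multiples, of chromosome 19 or of empty bins, with other distances for gene ends. Standardising by chromosome and keeping the scaffold genes were chosen after seeing the data.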

Additional observations from a re-analysis of the deposited data

How the results depend on the processing

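Of 58 values under alternatives, 34 stayed within the counting interval of the reported value, 24 moved beyond it and 0 changed direction. The share of autosomal peaks has no direction and could not count as changed. Some alternatives could not move a value. Any overlap leaves the gene-end difference as it was, and removal of empty bins leaves the density per gene-covered Mb as it was. The share of autosomal peaks at the ends was 3.78% with a window of 1 Mb, 14.8% with 5 Mb, 8.85% in the stronger part of the list, 6.29% with peaks within 1 kb joined and 7.24% without chromosome 19. The density ratio was 2.36 with 5 Mb, 3.47 in the stronger part, 2.397 with joined peaks, 2.72 over bins with a gene or a peak and 2.52 standardised by chromosome. Per gene-covered Mb it was 2.60 with 1 Mb, 2.09 with 5 Mb, 3.14 in the stronger part, 2.08 with joined peaks and 2.22 standardised by chromosome. The difference in coding genes with a gene-end peak was 2.90 points with joined peaks, 13.7 with a distance of 5 kb and 7.31 with the scaffold genes kept. That in the median log2 ratio was 0.10 in the stronger part and 0.24 with joined peaks. That in median width was 64 bp with 5 Mb and 165 bp in the stronger part. That in the intergenic share was -3.75 points with 1 Mb and -5.44 in the stronger part. The causes were not tested, except that fewer or larger regions enter by construction. No paired analysis was possible because each group holds 1 library. Depth is unknown, so the error of single ratios, and of the order of peaks and arms by ratio, cannot be given. Arms are not replicates, and arms with under 20 peaks give no usable median.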
